A study of Homo sapiens with 2 samples.

Results

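The 9 genes SPP1, IBSP, BGLAP, DMP1, MEPE, ALPL, PHEX, SP7 and DLX5 are textbook products of osteoblasts and bone matrix cells, 9 of the 20037 protein-coding genes in the annotation. They were taken by name as genes of the bone programme that RUNX2 is known for, and every peak of RUNX2 or MTA1 inside them or within 50 kb of either end was collected. This gave 36 of 61700 RUNX2 peaks and 34 of 42683 MTA1 peaks. The peaks came from CUT&Tag, in which an antibody tethers a transposase to chromatin so that DNA near the bound protein is tagged and sequenced, in the MDA-MB-231 line, which was derived from a triple-negative breast carcinoma. Both libraries came from the same cultured line with no genotype change or drug named, 1 library with an antibody against RUNX2 and 1 with an antibody against MTA1, which belongs to the nucleosome remodelling and histone deacetylase complex NuRD. There was no replicate, no control library was analysed here, and the read depth is unknown, so no test between the lists was possible and the exact 95% intervals cover counting error over peaks only. Sources differ on who supplied the antibodies, and the labels describe a ligation-based library preparation that is unusual for CUT&Tag, so both points are uncertain.

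RUNX2 is the master transcription factor of the osteoblast lineage. It binds a short DNA word through its Runt domain and, in bone-forming cells, switches on the genes of the mineralised matrix. SP7 (osterix) acts downstream of RUNX2, DLX5 is a homeobox factor upstream of it, ALPL makes phosphate available for mineral, PHEX is an endopeptidase of phosphate balance, and SPP1, IBSP, DMP1, MEPE and BGLAP are secreted into the matrix. MDA-MB-231 is an epithelial cancer line and not a bone cell, and these lists do not measure whether any of the genes is transcribed.

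The sequences just before the start of 5 members hold a RUNX word, and are shown because none of them lies under a peak. The words searched were TGTGGT and TGCGGT on both strands, with ACCACA and ACCGCA as their reverse complements, and no matches overlapped. RefSeq promoter windows (250 bases before to 50 after each listed start, GRCh38.p14) were at hand for 6 of the 9 members, in 9 windows. Those of SP7, DLX5 and PHEX were not analysed here. A word was found in the 250 bases before a start in 5 of the 9 windows, 1 each for SPP1, BGLAP, DMP1, MEPE and ALPL, against 16.3% of all 35116 windows. TGTGGT alone was in 11.0% of all windows. IBSP had none of these letters. Capitals mark the word, and all 5 stretches are printed on the plus strand. They are SPP1 at chr4:87975464-87975713, BGLAP at chr1:156241934-156242183, DMP1 at chr4:87650030-87650279, the second listed start of MEPE at chr4:87832719-87832968 and ALPL at chr1:21508734-21508983.
SPP1: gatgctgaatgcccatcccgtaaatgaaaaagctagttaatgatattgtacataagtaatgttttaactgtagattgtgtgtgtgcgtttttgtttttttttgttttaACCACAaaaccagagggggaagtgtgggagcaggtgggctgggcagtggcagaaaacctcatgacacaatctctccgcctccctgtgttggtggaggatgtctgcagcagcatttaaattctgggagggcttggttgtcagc
BGLAP: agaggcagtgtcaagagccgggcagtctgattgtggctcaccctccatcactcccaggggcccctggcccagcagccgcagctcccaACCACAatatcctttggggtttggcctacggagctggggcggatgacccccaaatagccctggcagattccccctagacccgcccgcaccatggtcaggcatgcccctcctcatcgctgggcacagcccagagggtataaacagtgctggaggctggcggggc
DMP1: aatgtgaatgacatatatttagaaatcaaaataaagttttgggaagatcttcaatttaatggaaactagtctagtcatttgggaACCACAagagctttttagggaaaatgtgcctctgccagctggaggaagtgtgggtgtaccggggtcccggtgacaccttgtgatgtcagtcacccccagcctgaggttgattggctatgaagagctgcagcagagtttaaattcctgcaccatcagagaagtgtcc
MEPE: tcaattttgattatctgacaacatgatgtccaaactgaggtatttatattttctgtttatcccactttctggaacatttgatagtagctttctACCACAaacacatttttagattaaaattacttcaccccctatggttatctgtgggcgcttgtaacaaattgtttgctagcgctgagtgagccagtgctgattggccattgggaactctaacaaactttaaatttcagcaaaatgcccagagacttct
ALPL: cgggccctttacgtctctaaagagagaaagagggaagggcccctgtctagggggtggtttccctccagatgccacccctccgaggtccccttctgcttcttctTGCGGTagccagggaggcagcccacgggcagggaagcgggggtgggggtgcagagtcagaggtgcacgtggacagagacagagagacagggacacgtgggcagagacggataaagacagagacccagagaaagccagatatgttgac

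The place of the word in the 5 stretches was not compared with its place in other promoters. Among the listed starts of ALPL and of MEPE, only 1 each had a word before it. Counted back from the start shown, the word filled -142 to -137 in SPP1, -147 to -142 in ALPL, -157 to -152 in MEPE, -163 to -158 in BGLAP and -166 to -161 in DMP1. It read TGTGGT on the minus strand in SPP1, BGLAP, DMP1 and MEPE, and TGCGGT on the plus strand in ALPL. A match of letters is a description and not a binding site. None of the 9 member windows, which leave out SP7, DLX5 and PHEX, was overlapped by a RUNX2 peak or by an MTA1 peak. Of all windows, 29.2% were overlapped by RUNX2 and 31.2% by MTA1. Over all windows, those with a word were overlapped in 32.3% against 28.6% without one for RUNX2, and in 30.4% against 31.4% for MTA1. These differences were not tested. Distances were measured from the 250-base stretch before each start. By this measure the nearest RUNX2 peak was 1.62 kb away, at the first listed start of MEPE. For ALPL it was 2.65 kb from the stretch before the second listed start and 3.09 kb from the stretch with the word. It was 8.13 kb for SPP1, 8.17 kb for BGLAP, 19.8 kb for IBSP and 93.7 kb for DMP1. An MTA1 peak came closer to BGLAP, at 0.103 kb from its stretch.

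Promoters of other genes beside the members were read in the same way. The 9 member windows do not include SP7, which had RUNX2 peaks 0.143 and 0.423 kb above its upper-coordinate end. The annotation used gives no strand for SP7. If that end is its start, the nearer peak overlaps the 250 bases before it. Of 20 promoter windows of other genes listed within the member windows, 10 were overlapped by a RUNX2 peak and 10 by an MTA1 peak. The 10 with RUNX2 and 9 of the 10 with MTA1 lay in the windows of BGLAP and SP7, which hold 13 of the 20. Of these 20 stretches, 1 held a RUNX word. It belongs to MYG1 at chr12:53299445-53299694, whose window carried a RUNX2 peak and no MTA1 peak. That RUNX2 peak, at chr12:53299557-53299902, ran past the window and there overlapped an MTA1 peak at chr12:53299888-53300026, scoring 5.41. A promoter of the transcription factor gene SP1 at chr12:53379926-53380175, under peaks of both lists, had no such word. Both stretches are given on the plus strand as a contrast with the members.
MYG1: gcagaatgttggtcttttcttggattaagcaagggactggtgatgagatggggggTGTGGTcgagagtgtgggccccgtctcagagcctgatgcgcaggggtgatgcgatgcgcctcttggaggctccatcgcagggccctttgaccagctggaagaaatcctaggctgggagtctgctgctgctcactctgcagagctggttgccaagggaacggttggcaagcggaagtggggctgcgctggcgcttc
SP1: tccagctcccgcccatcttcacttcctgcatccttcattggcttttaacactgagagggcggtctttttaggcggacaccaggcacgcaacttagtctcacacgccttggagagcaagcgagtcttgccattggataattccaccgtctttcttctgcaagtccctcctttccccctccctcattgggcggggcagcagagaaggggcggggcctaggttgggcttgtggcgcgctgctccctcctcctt

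Nearly every member had a peak somewhere within 50 kb, as did most genes of the genome. A RUNX2 peak lay within 50 kb of 7 of 9 members, where 90.8% of protein-coding genes had one, and an MTA1 peak lay within 50 kb of 8, where 86.6% had one. Peaks of both lists that overlapped by at least 1 bp were found within 50 kb of 7 members, against 80.1% of genes. DLX5 was the member with neither, a state shared by 7.53% of genes. At 10 kb, 7 members had RUNX2 and 7 had MTA1, against 79.2% and 75.0% of genes. IBSP, MEPE, DMP1 and DLX5, 4 members, had at most 1 RUNX2 peak in the window, where 17.0% of genes had so few. For MTA1, 2 members had at most 1, DMP1 and DLX5, against 23.7% of genes.

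Inside the genes and at their ends, RUNX2 peaks were found for 2 members each. A RUNX2 peak lay inside the span of 2 members, ALPL and PHEX, where 62.9% of protein-coding genes had one inside. An MTA1 peak lay inside 5 members, IBSP, DMP1, MEPE, PHEX and SP7, where 60.6% had one. Overlapping peaks inside the span were found for PHEX alone among the members, where 46.8% of genes had them. A RUNX2 peak within 3 kb of either end of the gene was found for 2 members, MEPE and SP7, against 59.9% of genes. For MTA1 it was 3 members, BGLAP, MEPE and SP7, against 59.1%. MEPE and SP7 had both lists at an end, as did 51.9% of genes. Span length was not matched in these comparisons.

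Most members, like most genes, have few neighbours, which bears on the background they are read against. All but BGLAP and SP7, 7 members, had at most 2 other protein-coding genes in the window. So did 10806 of all 20037 protein-coding genes, the median over all genes being 2. Among genes with so few neighbours, 88.2% had RUNX2 and 82.8% had MTA1 within 50 kb, and 54.7% had RUNX2 and 53.3% had MTA1 at an end. Of the 7 members, 5 had RUNX2 and 6 had MTA1 within 50 kb, 1 had RUNX2 at an end and 1 had MTA1 at an end. Genes with at least 5 others in the window had RUNX2 within 50 kb in 94.1% and at an end in 68.5%. BGLAP, with 7 others, and SP7, with 5, belong to that class.

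**Figure D1:**
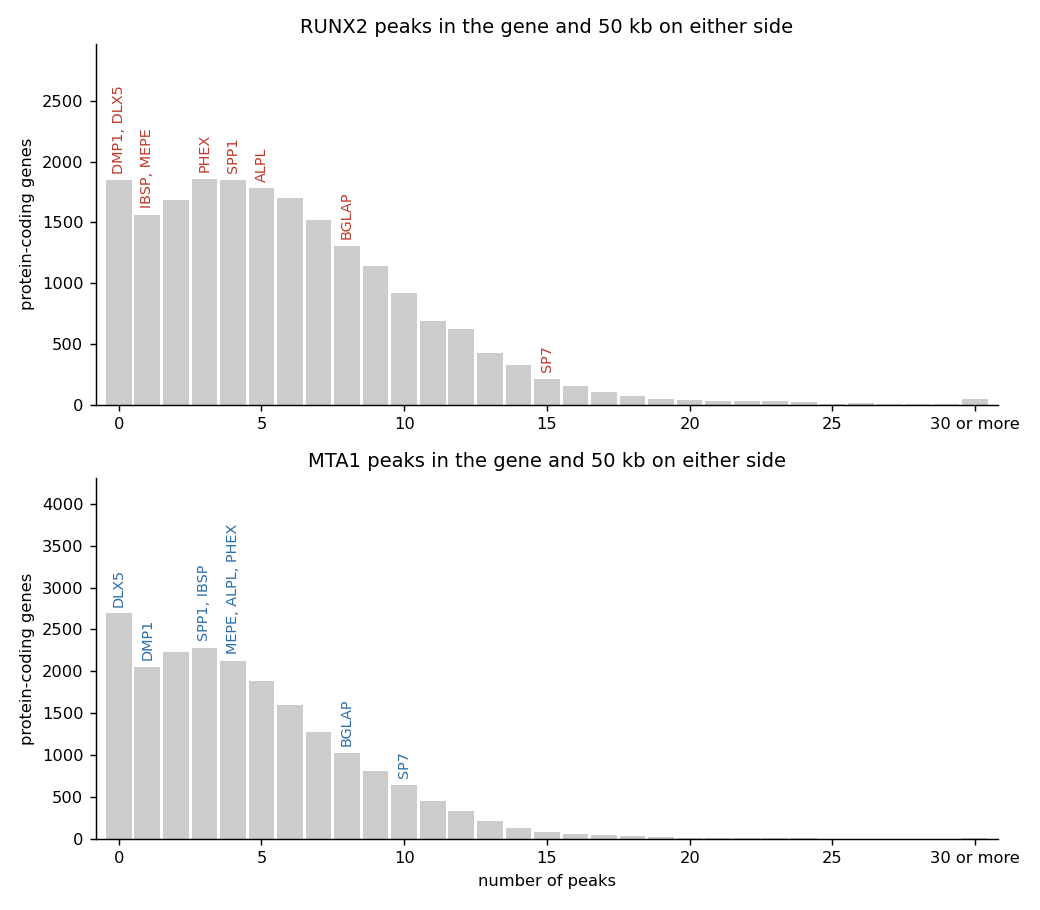
Histograms of all 20037 protein-coding genes (vertical axis, number of genes) by the number of peaks in the gene and 50 kb on either side (horizontal axis, the last bar holding 30 or more), for RUNX2 above and MTA1 below, with each member named over the bar it belongs to. SP7 with 15 RUNX2 and 10 MTA1 peaks lies in the right tail, and DLX5 with 0 of both lies in the leftmost bar.

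The number of RUNX2 peaks in a member's window ran from 0 for DMP1 and DLX5, through 1 for IBSP and MEPE, 3 for PHEX, 4 for SPP1, 5 for ALPL and 8 for BGLAP, to 15 for SP7. For MTA1 the numbers were 0 for DLX5, 1 for DMP1, 3 for SPP1 and IBSP, 4 for MEPE, ALPL and PHEX, 8 for BGLAP and 10 for SP7. The medians over all protein-coding genes were 5 and 4. SP7 had more RUNX2 peaks than 95.9% of genes and more MTA1 peaks than 89.8%. BGLAP stood above 68.8% and 80.6% of genes. The other members had counts at or below the median in both lists. Windows differed in length, so density is given too: SP7 had 127 RUNX2 peaks per Mb, BGLAP 79.1 and SPP1 37.1, above the median of 35.5 over all windows. ALPL had 29.5, PHEX, with the longest window at 319 kb, 9.4, IBSP 8.86 and MEPE 7.97. For MTA1 the median was 25.8 per Mb, and SP7 with 84.6, BGLAP with 79.1, MEPE with 31.9, SPP1 with 27.9 and IBSP with 26.6 were above it. ALPL with 23.6, PHEX with 12.5 and DMP1 with 8.77 were below. Over the 8 merged windows (IBSP and MEPE lie in the same stretch) there were 30.5 RUNX2 and 28.8 MTA1 peaks per Mb.

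The bone matrix proteins DMP1, IBSP, MEPE and SPP1 are secreted phosphoproteins encoded side by side on chromosome 4. Across the 333 kb from DMP1 to SPP1 there were 3 RUNX2 peaks (9.01 per Mb) and 5 MTA1 peaks (15.0 per Mb), with 1 overlapping pair. The pair lay before MEPE, a matrix protein whose cleaved peptide affects mineralisation. The RUNX2 peak at chr4:87819312-87819524 ended 1.87 kb before the start of MEPE and scored 16.4, above 82.9% of the RUNX2 list. The MTA1 peak at chr4:87819319-87819601 scored 11.5, above 70.6% of the MTA1 list. The same pair sits 6.88 kb past the far end of IBSP, bone sialoprotein, and is its only RUNX2 peak within 50 kb.

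Elsewhere in this stretch the peaks were of low to middle rank and came mostly from MTA1. IBSP itself carried an MTA1 peak at chr4:87806772-87806978 with a score of 5.85, above 30.5% of its list, and no RUNX2 peak. MEPE carried an MTA1 peak at chr4:87844011-87844258, near its far end, with a score of 5.33, above 21.8%. A further MTA1 peak lay 49.6 kb beyond MEPE with a score of 7.01, above 44.5%. DMP1, a matrix protein of osteocytes, carried an MTA1 peak of the narrowest width, 116 bp, at chr4:87657655-87657770 with a score of 5.85. It had no RUNX2 peak in its window. The nearest RUNX2 peak was 94.0 kb away, nearest to SPARCL1, and 5.56% of protein-coding genes had theirs farther off.

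SPP1, osteopontin, is an adhesive matrix phosphoprotein also made by many tumours. Its nearest RUNX2 peak, at chr4:87967232-87967330, lay 8.38 kb before its start, had the narrowest width of the list, 99 bp, and a score of 5.22, above 29.3% of the list. No MTA1 peak overlapped it. The other 3 RUNX2 peaks and all 3 MTA1 peaks of the SPP1 window were nearest to PKD2, which encodes a cation channel. Among these, a RUNX2 peak at chr4:88017888-88018228 (score 8.22, above 60.6%) overlapped a pair of MTA1 peaks scoring 5.92 and 9.06. The remaining MTA1 peak, scoring 7.54, overlapped the promoter window of PKD2 and not that of SPP1. The MTA1 peak nearest to SPP1 was 24.1 kb away, and 18.9% of genes had theirs farther off.

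**Figure D2:**
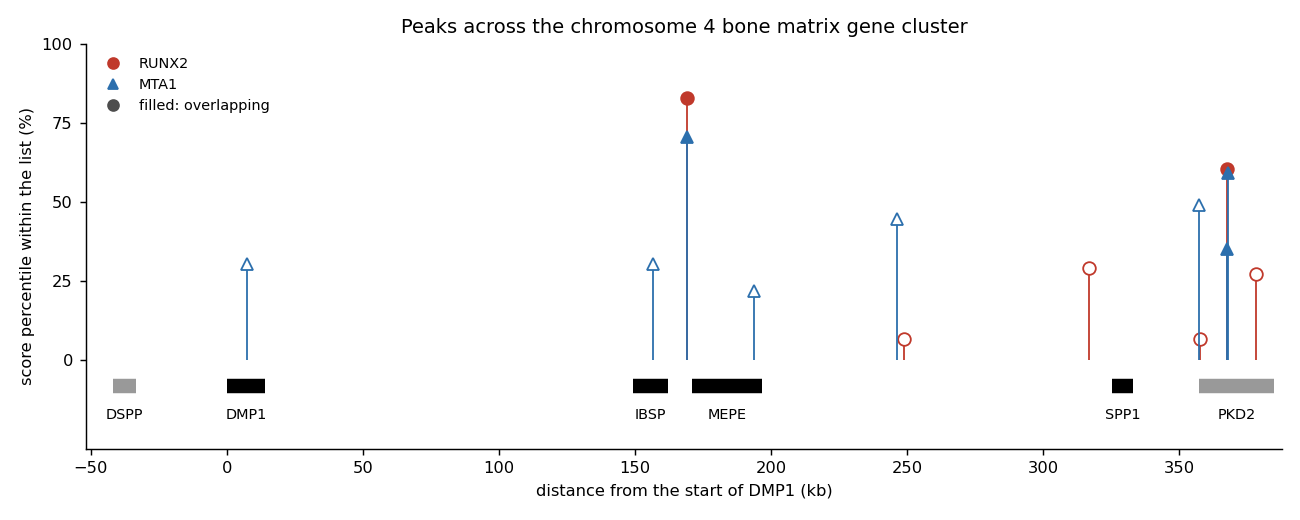
Peaks of RUNX2 (red) and MTA1 (blue) along the stretch of chromosome 4 that holds DMP1, IBSP, MEPE and SPP1, in kb from the start of DMP1 on the horizontal axis. Height gives the score percentile within the list, symbols are filled where the lists overlap, and bars are gene spans, members in black. The overlapping pair before MEPE, at percentiles 82.9 and 70.6, is the highest of each list in the stretch drawn.

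BGLAP, osteocalcin, is a vitamin K-dependent calcium-binding protein made by mature osteoblasts and the classic RUNX2 target in bone. Its window on chromosome 1 was crowded, with 8 peaks of each list, of which 5 RUNX2 peaks overlapped MTA1. None of the 16 was nearest to BGLAP itself when the readthrough unit PMF1-BGLAP, which spans it, counts as a separate gene. The closest to BGLAP was an MTA1 peak of score 6.27, above 38.4% of its list, at chr1:156241715-156241831. It ended 0.353 kb before the start of BGLAP, within the readthrough transcription unit PMF1-BGLAP. The nearest RUNX2 peak, at chr1:156233501-156233764, lay 8.42 kb away with a score of 4.62, above 19.0%, and had no MTA1 partner. The peaks of higher rank lay at neighbouring genes. The pair at the promoter of SLC25A44, a mitochondrial carrier, scored 18.1 for RUNX2 (above 85.1%) and 41.4 for MTA1 (above 98.3%). The pair at the starts of SMG5 and TMEM79 scored 7.38 for RUNX2 (above 56.1%) and 22.6 for MTA1 (above 90.5%). Around the start of PMF1, RUNX2 peaks of score 4.66 and 6.95 overlapped MTA1 peaks of score 16.2 and 8.19.

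ALPL, tissue-nonspecific alkaline phosphatase, cleaves the mineralisation inhibitor pyrophosphate. It had 5 RUNX2 peaks and 4 MTA1 peaks, and 2 of the RUNX2 peaks overlapped MTA1. The RUNX2 peak of highest rank nearest to any member was here. It lay at chr1:21586937-21587263, 8.53 kb beyond the far end of the gene, with a score of 23.1, above 89.8% of the list. The MTA1 peak that overlapped it, at chr1:21586961-21587244, scored 7.01, above 44.5%. Inside ALPL there were 2 RUNX2 peaks without an MTA1 partner. The peak at chr1:21512070-21512264, centred 3.18 kb after the first listed start, scored 9.80 (above 67.8%), and the peak at chr1:21523452-21523584 scored 5.11 (above 27.2%). The other 2 RUNX2 peaks were nearest to RAP1GAP, and the stronger of them (9.59, above 67.1%) overlapped an MTA1 peak of score 6.86.

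PHEX, an endopeptidase whose loss causes X-linked hypophosphataemia, was the member with the longest span and the only one with overlapping peaks inside it. Its 3 RUNX2 peaks were all inside the gene. The strongest, at chrX:22165137-22165353, scored 14.6, above 80.0% of the list, and overlapped the MTA1 peak at chrX:22165121-22165380, which scored 5.76, above 27.7%. The remaining RUNX2 peaks, at chrX:22135278-22135376 and chrX:22136400-22136498, had the narrowest width and a score of 3.39, above 4.04% of the list. The second of them overlapped an MTA1 peak of score 4.06. MTA1 had a further peak inside PHEX, scoring 7.01, and a peak in the neighbouring polyamine gene SMS, scoring 9.41, 46.8 kb away. No peak of either list lay within 3 kb of an end of PHEX.

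SP7, the zinc-finger factor that completes the osteoblast fate after RUNX2, had the most peaks, with 15 of RUNX2 and 10 of MTA1, and 8 of the RUNX2 peaks overlapped MTA1. Of the 15, 5 were nearest to SP7 and 10 to a neighbour. Since the annotation used gives no strand for SP7, its ends are named by coordinate. At the lower end, 1.53 kb below the gene, RUNX2 at chr12:53324776-53325046 (score 7.23, above 55.4%) overlapped MTA1 at chr12:53324761-53325097 (score 7.60, above 50.1%). At the upper end, a RUNX2 peak at chr12:53344936-53345077 lay 0.143 kb above the gene with a score of 6.50, above 48.4%, and no MTA1 peak overlapped it. Further RUNX2 peaks lay 0.423, 6.77 and 8.68 kb above, of the narrowest width, with scores of 4.21, 4.42 and 4.62. They stood above 13.2%, 15.3% and 19.0% of the list. Inside SP7 there was an MTA1 peak of score 5.53, above 24.4%, and no RUNX2 peak.

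The peaks of highest rank in the SP7 window lay toward SP1, which encodes a ubiquitous zinc-finger factor. The pair over the SP1 promoter, at chr12:53379469-53380202 for RUNX2 and chr12:53379468-53380218 for MTA1, scored 34.1 and 38.6, above 95.5% and 97.9% of the lists. Another pair nearby scored 29.5 and 22.95, above 93.7% and 90.8%. Peaks at the genes AAAS, PFDN5, MYG1 and ESPL1 on the other side of SP7 scored at most 8.50 for RUNX2.

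DLX5, a homeobox factor of skeletal and forebrain development, had no peak within 50 kb. The nearest RUNX2 peak was 53.6 kb above it, next to SDHAF3, with a score of 4.84, above 22.9%, and 8.67% of protein-coding genes had theirs farther off. Below it, at 57.8 kb and nearest to the adjacent homeobox gene DLX6, a RUNX2 peak at chr7:96962256-96962580 (score 10.3, above 69.5%) overlapped an MTA1 peak at chr7:96962359-96962474 (score 5.53, above 24.4%). At 70.4 kb a RUNX2 peak at chr7:96949589-96950044 scored 41.8, above 97.4%, and overlapped an MTA1 peak of score 6.73. These values lie just outside the 50 kb rule and are not counted among the members' peaks.

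**Figure D3:**
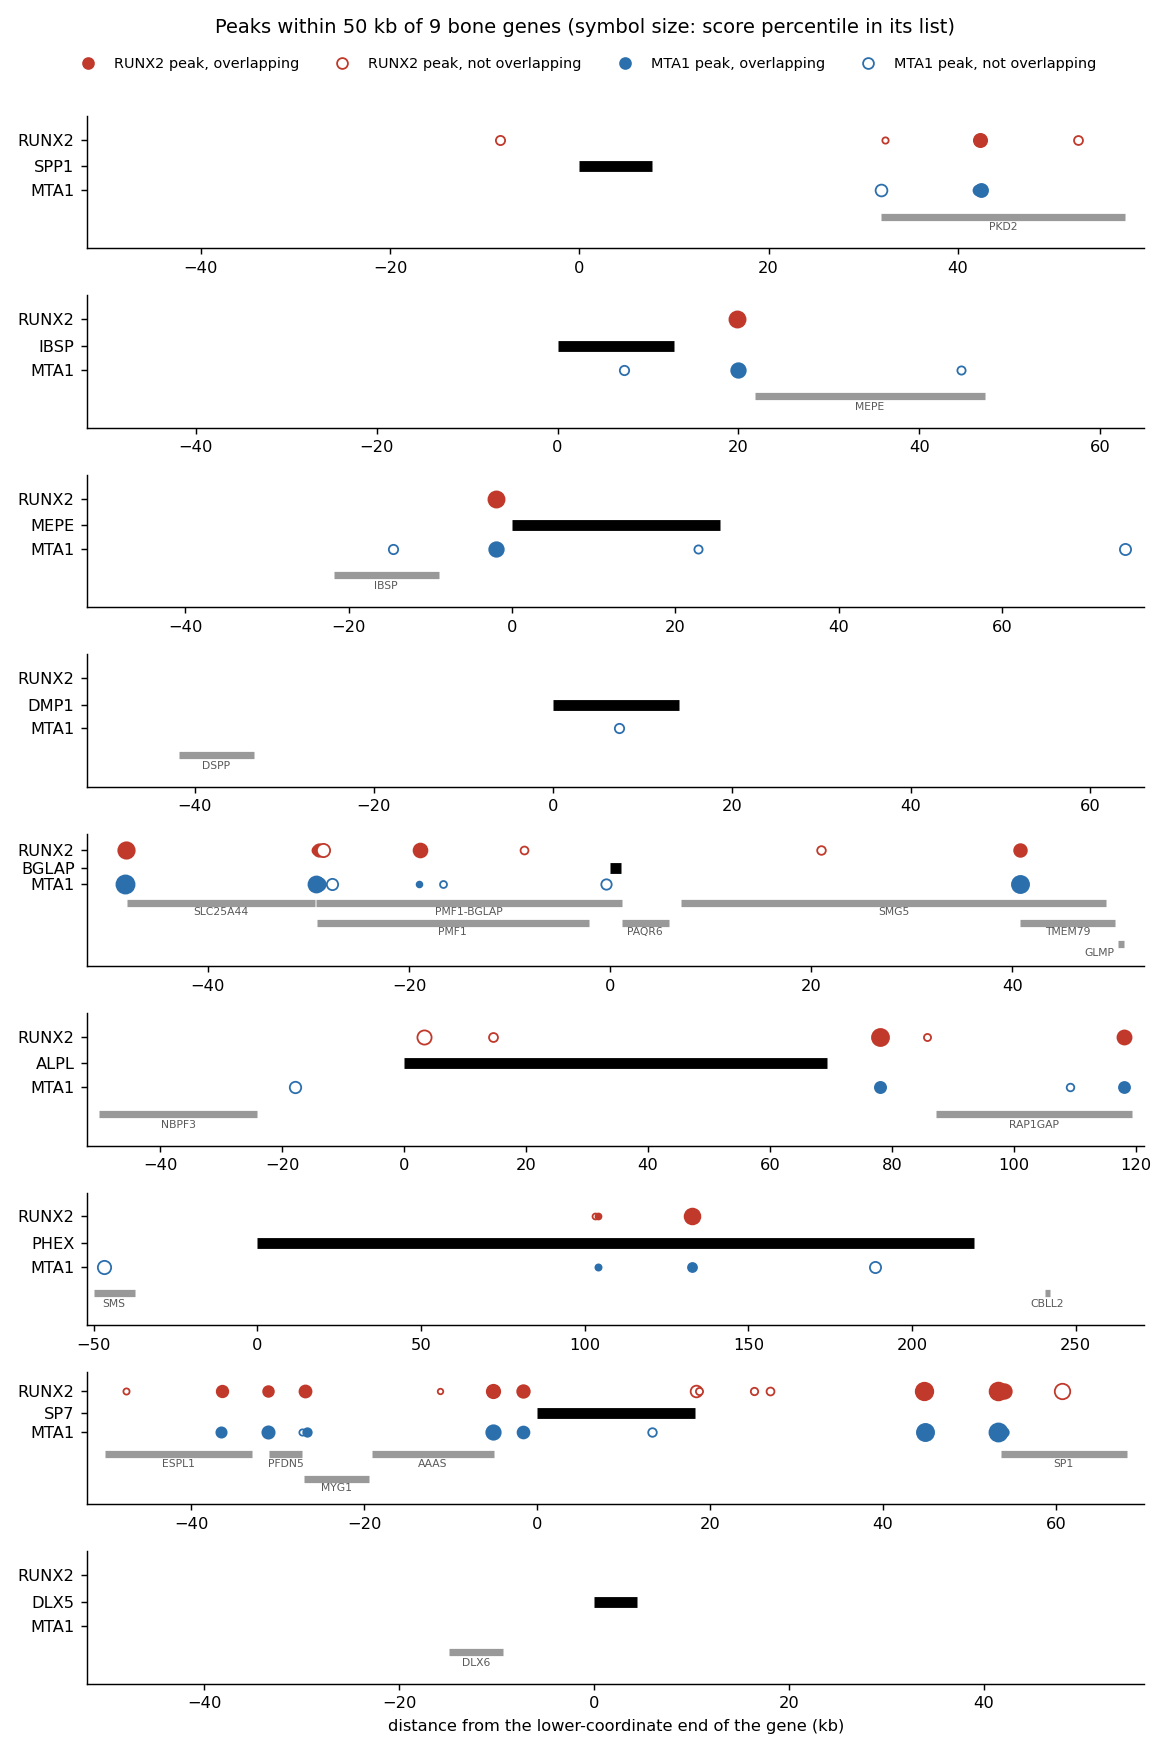
Map of each member window, with distance from the gene's lower end in kb on the horizontal axis, the member (black) and neighbouring protein-coding genes (grey) as bars, and RUNX2 (red) and MTA1 (blue) peaks as circles, larger with a higher score percentile and filled where they overlap the other list. Circles gather over neighbours in the BGLAP and SP7 windows, while the DLX5 window is empty.

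By score, the median peak within 50 kb of the members stood slightly below the middle of its list, and within 10 kb it stood lower, at percentile 29.3 for RUNX2 and 34.5 for MTA1. The score is the authors' own, of unstated scale, and was compared only by its percentile, the share of the list with a lower score. The 36 RUNX2 peaks had a median percentile of 49.8, with 18 at or above the list's median score, and ran from 0.655 to 95.5. The 34 MTA1 peaks had a median percentile of 44.5, with 12 at or above the list's median, and ran from 2.54 to 98.3. For 13 RUNX2 and 11 MTA1 peaks the nearest protein-coding gene was a member, and their median percentiles were 29.3 and 30.5. For the 23 and 23 nearest to another gene they were 54.1 and 46.6. The MTA1 peak 0.353 kb before BGLAP falls among the latter, as it lies in PMF1-BGLAP. The highest percentile among peaks nearest a member was 89.8 for RUNX2, beyond ALPL, and 70.6 for MTA1, before MEPE. The narrowest width of its list was held by 10 RUNX2 peaks (27.8%, against 31.7% of the list) and 7 MTA1 peaks (20.6%, against 26.0%).

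**Figure D4:**
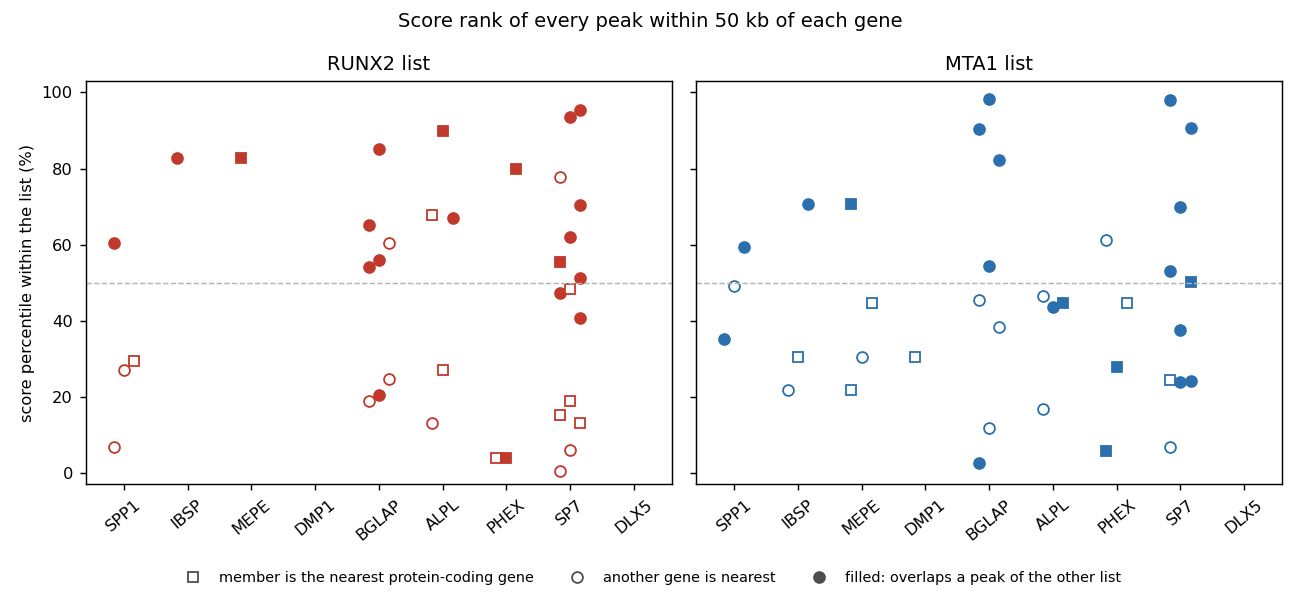
Score percentile within the list (vertical axis, percent of peaks with a lower score) of each peak in each member window (horizontal axis), for RUNX2 and MTA1, as squares where the member is the nearest protein-coding gene and circles where another gene is, filled where the peak overlaps the other list. Peaks shared by IBSP and MEPE are drawn under both, and the highest point is nearest to another gene in both lists, at 95.5 in the SP7 window for RUNX2 and 98.3 in the BGLAP window for MTA1.

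The share of peaks found in both lists had, near the members, an interval that held the share of the whole list. Of the 36 RUNX2 peaks, 19 overlapped an MTA1 peak, or 52.8% (35.5 to 69.6), against 45.4% (45.0 to 45.8) of all RUNX2 peaks. Among 34 MTA1 peaks, an overlapping RUNX2 peak was found for 20, or 58.8% (40.7 to 75.4), against 65.5% (65.0 to 65.9) of all MTA1 peaks. Among peaks nearest a member the shares were 38.5% (13.9 to 68.4) of 13 RUNX2 peaks and 45.5% (16.7 to 76.6) of 11 MTA1 peaks. Among those nearest another gene they were 60.9% (38.5 to 80.3) and 65.2% (42.7 to 83.6), with intervals that overlap the former widely. RUNX2 peaks that overlapped MTA1 ranked higher than those that did not, with median percentiles of 62.0 and 19.0. For MTA1 these were 51.6 and 34.5. The same medians over the whole lists are not set beside these, so the difference cannot be called particular to the member windows.

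Other genes of bone and mineral give the members' counts a setting. Of 22 further osteoblast and mineralisation genes listed by textbook role, 18 had a RUNX2 peak within 50 kb, 18 had MTA1 and 16 had an overlapping pair, against 90.8%, 86.6% and 80.1% over the whole annotation. A RUNX2 peak lay within 3 kb of an end of 11 of them, and an MTA1 peak at 9, all 9 with both, against 59.9% and 59.1% of all genes, and 51.9% with both. The median numbers of peaks were 4 and 2. All 7 genes of mineral metabolism had both lists within 50 kb, 6 with RUNX2 at an end, counts too small to set apart from those shares, and ANKH, a pyrophosphate transporter gene, had the most RUNX2 peaks at 15. SOST, an inhibitor of bone formation, had the highest RUNX2 score in its window, 56.3. Of the 7 matrix genes, 5 had RUNX2 and 6 had MTA1 within 50 kb. Those with RUNX2 at an end were 2, and COL1A1, the main collagen of bone, had 10 RUNX2 and 13 MTA1 peaks. Of the 7 regulators, 5 had each list within 50 kb. MSX2, TWIST1 and CDH11 had no peak of either list. The collagenase gene MMP13, a known RUNX2 target, had 1 RUNX2 peak and no MTA1 peak. The 9 and the 22 genes were not tested against each other.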

How the data were processed

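CUT&Tag peaks were called by the authors in 1 library per antibody. The deposited lists hold chromosome, start, end and a score whose scale was not stated, and were used as deposited, with 17 RUNX2 and 15 MTA1 mitochondrial peaks left out. The submitters' processing notes name CASAVA 1.4, Bowtie 0.12.8, MACS and MACS2 with build hg19, but the positions fitted GRCh38.p14: moved in 1 kb steps by up to 1.5 Mb (3001 moves), peaks within 5 Mb of the 8 windows lay within 1 kb of gene ends most often at no move, in 16 of 16 combinations of window and list. The chromosome 4 windows lie close together and share most of these peaks, so the combinations are not all separate checks. Names and neighbours came from RefSeq GRCh38.p14, sequences from its promoter table.

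Peaks overlapped when they shared at least 1 bp. Backgrounds are over 20037 protein-coding genes. Intervals are exact (Clopper-Pearson). No p-value was computed. The named genes are the 9 members by role, the gene nearest each peak, and 22 further bone genes, of which extremes are named, and the peaks of 1 are not reported here. MMP13 is named as the single protease of its class. Neighbours whose promoters are described, and the peaks outside the DLX5 and DMP1 windows, were chosen after their values were seen. Members and lists were chosen with earlier results of these data known. Steps were tested on simulated data. Python 3.11.15, pandas 2.3.3 and scipy 1.17.1 were used.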

Additional observations from a re-analysis of the deposited data

How the results depend on the processing

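Of 59 recomputed values, 41 stayed within 1.5 times the count, within the interval of the share, or, for median score ranks, within 1 SD of the ranks of the peaks. That last bound is wide: a window of 10 kb moved the median percentile of RUNX2 peaks from 49.8 to 29.3, over 1.5 times, and of MTA1 peaks from 44.5 to 34.5. The same window left 15 RUNX2 and 12 MTA1 peaks, and 100 kb gave 60 and 54. Peaks at or above the median score numbered 18 and 12, and 5 RUNX2 peaks nearest a member remained. With only the top 10000 peaks by score in either list, 3 members had RUNX2, 2 had MTA1 and 2 had an overlapping pair, with 4 and 5 peaks, and 75.0% of the 4 RUNX2 peaks overlapped. Without the windows of SP7 and BGLAP, an alternative chosen after seeing the data, there were 13 RUNX2 and 16 MTA1 peaks. The 8 peaks within 3 kb of member ends became 3 at 1 kb, 20 at 10 kb and 4 at or above the median score. No paired analysis was possible because each antibody has 1 library. Each list holds peaks past its library's own threshold, so where no peak is listed, weak signal and none cannot be told apart, and depth is unknown.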
